A study of Drosophila melanogaster with 15 samples.

Results

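The genes described here drive the cell through its division cycle in the somatic cyst lineage of the Drosophila melanogaster testis. They were a list of 47 symbols, looked up by exact spelling in the table of 17408 genes, and 46 were found. The one not found was fzr, whose product activates the anaphase-promoting complex late in mitosis and in G1. One row of the table, rap, carries a symbol that the BDGP6.54 annotation gives as a synonym of fzr, and it was not counted as a member. The 46 members were divided into 23 genes of the G1 to S transition and DNA replication and 23 genes of mitosis. By role there were 9 G1/S regulators, 14 replication genes, 8 genes of mitotic entry, 6 found genes of anaphase and its checkpoint, and 9 genes of chromosomes, spindle and cytokinesis.

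Counts came from 15 libraries of polyadenylated RNA in 5 groups of 3, made from cells of dissociated adult testes that were sorted for GFP under tj-Gal4, a driver of the cyst lineage. Males of every group carried 1 chromosome with tj-Gal4 and UAS-GFPnls. Upd males, w/Y in genotype, also carried UAS-Upd, for the ligand of JAK/STAT signalling, with a further UAS-GFP. Ci males carried UAS-Ci5Ncm5 with UAS-Ci5m30, which encode forms of Cubitus interruptus, the factor through which Hedgehog signals act on transcription. Chinmo males carried a chinmo transgene under UAS (UAS-5'UTR-chinmo-3'UTR) and tub-gal80TS, a temperature-sensitive block of Gal4 that no other group had. Males labelled chinmo RNAi carried the hairpin HMS00036 against chinmo and UAS-dcr2. WT males carried a second UAS-GFPnls and no other transgene. Flies were aged 10 days after eclosion, except those labelled chinmo RNAi, which were aged 2 or 3 days, so that in this group the hairpin, UAS-dcr2 and age cannot be told apart. Testes were pooled, 100 to 200 per library, from 50 to 100 flies. The labels do not tell whether replicate libraries stem from separate crosses. The p-values therefore reflect no more than the scatter among these samples, which may be technical.

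Cyclins D and E with their kinases Cdk4 and Cdk2 release E2f1 and Dp from the retinoblastoma protein Rbf, and the freed factors switch on genes of DNA synthesis. Origin recognition and Mcm proteins license the DNA, PCNA clamps the polymerase to it, and cyclins A, B and B3 with Cdk1 then take the cell into mitosis, where securin and separase time the parting of the chromatids. In the adult testis the cyst stem cells are the dividing somatic cells, and the cyst cells they produce leave the cycle while they wrap the dividing and then meiotic germ cells, which use many of the same genes.

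Between 1143049 (Chinmo 3) and 2943120 (Ci 2) counts were assigned to genes per library. The library Chinmo 3 stood apart, with counts in 4983 genes against 8109 to 13229 in the other 14 libraries, and with 32.3% of its counts in ribosomal RNA genes. Levels are in CPM, the counts scaled to a common library size, with TMM factors. The genes behind the transgenes checked the labels. The level of upd1 was 195.5 ± 16.7 CPM in Upd, against 6.78 ± 4.64 CPM in WT. That of ci was 329 ± 164 CPM in Ci, against 27.6 ± 7.98 CPM in WT, and that of chinmo was 418 ± 331 CPM in Chinmo, against 71.9 ± 2.87 CPM in WT (SD, n = 3 each). The Chinmo libraries read 100.1, 391.8 and 761 CPM of chinmo, so Chinmo 1 was little above WT and below 2 of the libraries labelled chinmo RNAi, which read 147, 143 and 61.4 CPM. Upd also had more chinmo than WT, at 607 ± 107 CPM, and more ci, at 245, 214 and 194 CPM. The Ci libraries read 510, 284 and 192 CPM of ci, so Ci 3 was below every Upd library. The level of ci thus sets Ci apart from WT but did not pass between Upd and Ci (edgeR adjusted p = 0.386). Under the label chinmo RNAi, the level of chinmo was 117.2 ± 48.4 CPM, which is not below WT, and every direction given for that label carries this limit. Markers of cyst stem cells (8 genes) summed to 2730 to 3344 CPM in Upd, 573 to 692 CPM in Ci, 324 to 884 CPM in Chinmo, 312 to 541 CPM in libraries with the label chinmo RNAi, and 269 to 320 CPM in WT. The list includes chinmo itself, the gene of the Chinmo transgene. In Chinmo it gave 100.1, 391.8 and 761 of the summed 324, 573 and 884 CPM. In Chinmo against WT 5 of the 8 markers had negative fitted changes, and the 1 called, chinmo, was higher. tj itself, the gene whose control region drives Gal4, had 199.6 to 246 CPM in Upd and 0.475 to 16.9 CPM in WT. RNA of germ cells was present in every group: the 24 spermatocyte and spermatid markers summed to 194 to 329 CPM in Upd, 5437 to 9700 CPM in Ci, 3445 to 4203 CPM in Chinmo, 3612 to 4585 CPM under the label chinmo RNAi, and 6287 to 11230 CPM in WT.

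Cell cycle transcripts were most abundant in Upd. The 46 members together took 0.501% to 0.536% of gene counts in Upd, 0.148% to 0.230% in Ci, 0.0643% to 0.0881% in Chinmo, 0.0501% to 0.0838% under the label chinmo RNAi, and 0.119% to 0.149% in WT. Upd had the highest group mean for 39 of the 46 genes. The lowest mean lay under the label chinmo RNAi for 23 genes and in Chinmo for 18. These rankings were not made over all genes tested. Chinmo 3 and the second library labelled chinmo RNAi had the fewest genes with a count, 4983 and 8109. In bulk samples, fewer cells of a type and less RNA per cell cannot be told apart. All 46 members had a count in each Upd and each Ci library, and 43 to 46 had one in the WT libraries. In the 3 Chinmo libraries 30, 43 and 12 members had a count, and in the 3 libraries labelled chinmo RNAi 37, 27 and 44. Over all 17408 genes, the share with a count was 53.7%, 57.9% and 28.6% in Chinmo. Under the label chinmo RNAi this share was 59.3%, 46.6% and 62.3%, beside 64.2% to 65.3% in WT. It was 63.6% to 67.9% in Upd and 65.9% to 76.0% in Ci.

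**Figure D1:**
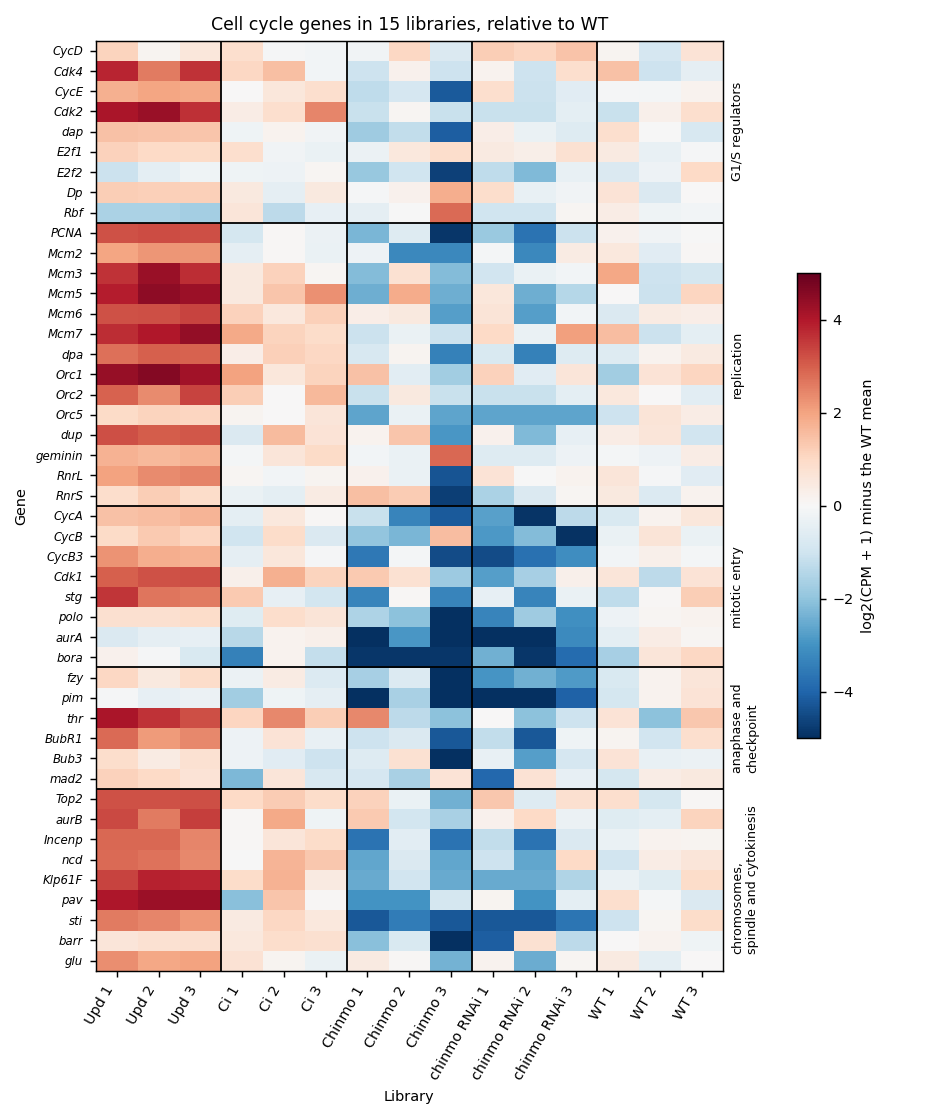
Level of each of the 46 genes (down the page, grouped by role) in each of the 15 libraries (across), as log2(CPM + 1) minus the mean of the 3 WT libraries; red is above WT, blue is below, and the colours stop at 5 in either direction. Most genes are red in all 3 Upd columns, the Ci columns are pale, and the darkest blue cells lie among the mitotic genes of Chinmo and of the libraries labelled chinmo RNAi.

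The libraries of a group agreed more closely in Upd than elsewhere. The median coefficient of variation over the members was 14.3% in Upd, 44.3% in Ci, 123% in Chinmo, 91.3% under the label chinmo RNAi, and 50.4% in WT. Chinmo 3, in which 28.6% of all genes had a count, had 34 of the 46 members at 0. Yet it held 841 CPM of Rbf, 221 CPM of geminin and 86.4 CPM of CycB, each the highest value of that gene in any library. All members passed the filter on low counts, which left 10056 genes to test, but Cdk4, Cdk2, Orc2 and aurB passed only through the Upd libraries.

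In Upd against WT, which asks what the JAK/STAT ligand does to the lineage, 21 of the 46 genes rose and 0 fell (edgeR quasi-likelihood test, Benjamini-Hochberg adjusted p under 0.05 over all 10056 genes). Over all genes tested, 9.22% were called higher and 25.3% lower. At an unadjusted p under 0.05 there was 1 member lower, Rbf, and DESeq2 and limma-voom also called 0 members lower. The median log2 change was 2.21 over the members and -0.07 over all genes. The 4 genes that passed the filter only through Upd are among the 21 that rose, and they entered the test only because they are high in Upd. Without them 17 of 42 rose. With only the Upd and WT libraries in the fit, 34 members rose and 1, Rbf, fell. In that fit 2385 of all 10056 genes were called higher and 3338 lower.

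Replication genes made up 10 of the 21, out of 14 in that role. Without Orc2, which entered the test only through the Upd libraries, 9 of 13 replication genes rose. PCNA, the sliding clamp of the replication fork (2R, 20261754 to 20262883, minus strand, BDGP6.54 annotation), had 266, 279.5 and 269 CPM in Upd, against 32.9, 24.7 and 27.5 CPM in WT. The 3 Upd libraries lay close together and far above every WT library. On the log2 scale the gene rose by 3.26, with a standard error (SE) of 0.79 (edgeR adjusted p = 0.00249). Orc1, the large subunit of the origin recognition complex, had 68.3, 79.6 and 60.8 CPM in Upd, against 0, 4.38 and 6.17 CPM in WT, with no overlap between the groups (log2 change 4.27 ± 1.13, edgeR adjusted p = 0.00509). Orc2, a second subunit, rose by 3.61 ± 1.26 from a low level, with 8 counts over the 3 WT libraries (edgeR adjusted p = 0.0284).

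The Mcm2-7 helicase, which unwinds the DNA ahead of the fork, is encoded by 6 members, and 5 of them rose. Mcm5 had 82.3, 122 and 106 CPM in Upd, against 4.62, 1.59 and 10.4 CPM in WT, and the groups were well apart (log2 change 4.21 ± 1.25, edgeR adjusted p = 0.0114). The log2 changes were 3.42 ± 1.12 for Mcm3, 3.36 ± 1.04 for Mcm6, 4.17 ± 1.23 for Mcm7 and 2.94 ± 0.98 for dpa, the fly Mcm4 (edgeR adjusted p = 0.0201, 0.0145, 0.0109 and 0.0223). The reads of Mcm7 are uncertain, because 81.7% of its exonic length overlaps an antisense RNA and the strand setting of the counting is not given in the sources used here. Mcm2 did not pass, with 34.8, 41.0 and 41.2 CPM in Upd and 12.3, 5.17 and 8.55 CPM in WT (2.16 ± 1.10, edgeR adjusted p = 0.136).

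dup, the fly Cdt1 that loads the helicase, rose by 3.12 ± 1.04 (edgeR adjusted p = 0.0225). Its inhibitor geminin had 101, 93.3 and 101 CPM in Upd, against 27.7, 24.7 and 38.5 CPM in WT, and did not pass (1.70 ± 0.73, edgeR adjusted p = 0.0765). The groups did not overlap for either gene. Ribonucleotide reductase makes the deoxynucleotides: its large subunit gene RnrL rose by 2.27 ± 0.83 (edgeR adjusted p = 0.0356), while the small subunit gene RnrS, at 46.7, 61.0 and 49.0 CPM in Upd and 35.4, 15.5 and 29.0 CPM in WT, did not pass (0.97 ± 0.91, edgeR adjusted p = 0.436).

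Fewer of the G1/S regulators passed, 2 of 9. These were the kinase genes Cdk2 (35.2, 42.4 and 25.9 CPM in Upd and 0, 1.59 and 2.85 CPM in WT) and Cdk4 (27.6, 11.2 and 24.01 CPM in Upd and 4.62, 0 and 0.475 CPM in WT). Their log2 changes were 4.48 ± 1.22 and 3.62 ± 1.35 (edgeR adjusted p = 0.00636 and 0.0413). Both genes had 10 counts over the 3 WT libraries, and 43.9% of the exonic length of Cdk2 overlaps a gene on the other strand. Both entered the test only through the Upd libraries, and of the other 7 regulators 0 passed.

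CycE, which encodes the partner of Cdk2, had 61.5, 70.8 and 67.0 CPM in Upd, against 16.4, 15.9 and 19.9 CPM in WT. Every Upd library stood above every WT library, yet the change of 1.93 ± 0.83 did not pass in the fit of all 5 groups (edgeR adjusted p = 0.0769). It passed with Upd and WT alone (edgeR adjusted p = 0.000583). dap, which encodes an inhibitor of Cdk2, had 47.5, 46.3 and 45.5 CPM in Upd and 30.3, 16.3 and 9.02 CPM in WT (1.32 ± 0.82, edgeR adjusted p = 0.225).

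Rbf was the one G1/S regulator whose Upd libraries all lay below all WT libraries, with 39.1, 38.9 and 35.9 CPM in Upd against 151, 101 and 107 CPM in WT (-1.65 ± 0.67, edgeR adjusted p = 0.0599). With Upd and WT alone the fall passed (-1.72, edgeR adjusted p = 0.000325). E2f1, the activating factor that Rbf holds, had 300, 273 and 268 CPM in Upd and 184, 105 and 130 CPM in WT (1.004 ± 0.432, edgeR adjusted p = 0.076). The repressive factor gene E2f2 ranged from 11.2 to 21.2 CPM in Upd and from 14.4 to 49.9 CPM in WT, so the groups overlapped. CycD overlapped too, at 21.7 to 44.3 CPM in Upd and 10.7 to 32.8 CPM in WT.

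**Figure D2:**
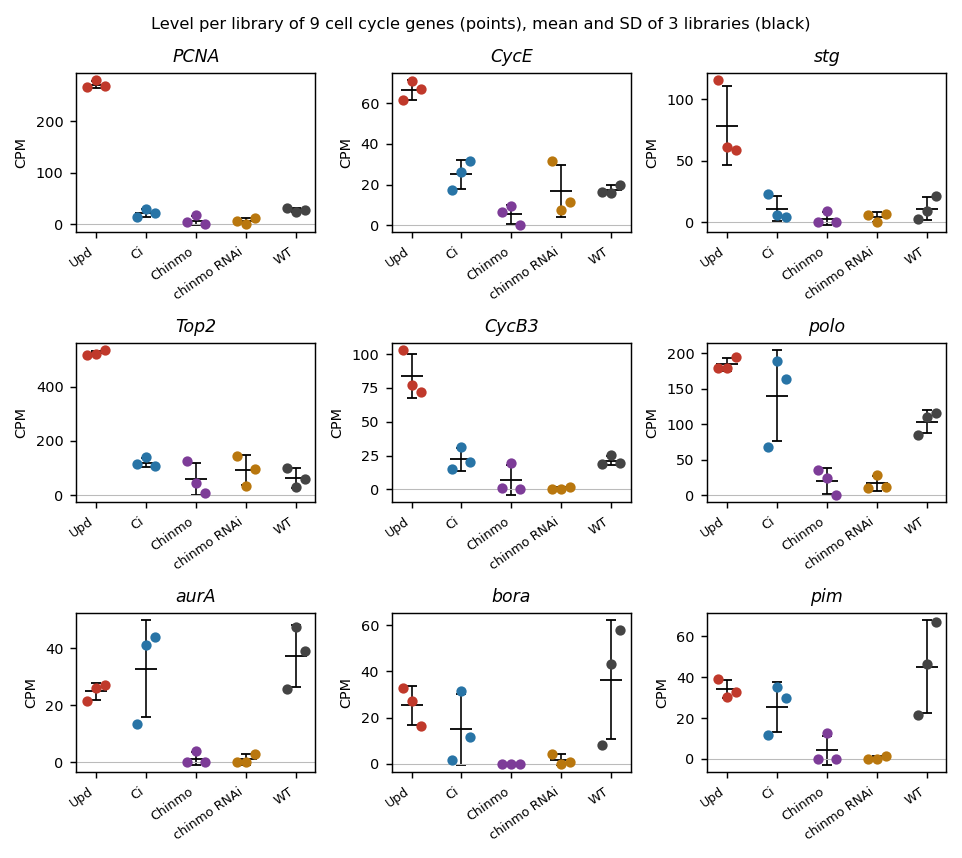
Level in CPM (vertical axes, each with its own scale) of 9 genes in each library (points), with the mean and SD of the 3 libraries of a group in black; groups run Upd, Ci, Chinmo, chinmo RNAi and WT. PCNA, CycE and Top2 stand highest in Upd, while aurA, bora and pim have a lower mean in Upd than in WT and are at or near 0 in most libraries of Chinmo and of the label chinmo RNAi.

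Of the 8 genes of mitotic entry, 1 rose in Upd. Cdk1, the mitotic kinase, had 121, 139 and 140 CPM in Upd, against 22.1, 5.17 and 23.7 CPM in WT, with no overlap (2.97 ± 0.90, edgeR adjusted p = 0.0127). stg, the fly Cdc25 phosphatase that activates Cdk1, had 115.4, 61.7 and 58.6 CPM in Upd and 3.08, 9.15 and 21.8 CPM in WT. All Upd libraries lay above all WT libraries, but the WT libraries varied widely and the change of 2.78 ± 1.15 did not pass (edgeR adjusted p = 0.0648). CycB (58.3, 75.05 and 63.0 CPM in Upd and 23.1, 46.9 and 23.3 CPM in WT) had a fitted change of 1.07 ± 0.98 (edgeR adjusted p = 0.425), and CycA and CycB3 of 1.48 ± 0.82 and 1.98 ± 0.95 (edgeR adjusted p = 0.168 and 0.111).

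The kinase genes polo and aurA and the Aurora A activator bora had the smallest differences of this role. polo had 179, 179 and 194 CPM in Upd and 85.2, 110.2 and 115.4 CPM in WT (0.83 ± 0.69, edgeR adjusted p = 0.379). aurA had 21.6, 25.9 and 27.1 CPM in Upd and 25.7, 47.4 and 38.9 CPM in WT (-0.58 ± 0.96, edgeR adjusted p = 0.673). bora ranged from 16.2 to 32.8 CPM in Upd and from 8.21 to 57.9 CPM in WT, so the Upd libraries lay inside the WT range (-0.53 ± 1.03, edgeR adjusted p = 0.728).

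Among the 6 genes of anaphase and the checkpoint, 1 passed. thr encodes separase, the protease that frees sister chromatids, and had 68.3, 49.8 and 37.7 CPM in Upd, against 5.65, 0 and 9.50 CPM in WT (3.36 ± 1.28, edgeR adjusted p = 0.0448). Its partner pim, the fly securin, had 39.1, 30.5 and 32.7 CPM in Upd and 21.6, 46.6 and 66.9 CPM in WT, so separase stood higher in Upd while the securin levels overlapped. The checkpoint gene BubR1 had 133, 80.7 and 99.2 CPM in Upd and 19.5, 8.75 and 32.8 CPM in WT (2.36 ± 0.98, edgeR adjusted p = 0.0672), with no overlap. Bub3, mad2 and fzy, which encodes the anaphase-promoting complex activator Cdc20, had fitted changes between 0.63 and 0.88.

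Chromosome, spindle and cytokinesis genes held most of the mitotic calls, 7 of 9. Without aurB, which entered the test only through the Upd libraries, 6 of the 8 genes left in this role rose. Top2, the topoisomerase that untangles sister chromatids (2L, 19447365 to 19453490, minus strand), had 518, 520.1 and 533 CPM in Upd, against 101, 30.2 and 58.9 CPM in WT (3.05 ± 0.66, edgeR adjusted p = 0.000925). pav, the kinesin of the cytokinetic midzone, had 132, 153 and 154 CPM in Upd, against 13.3, 6.37 and 3.80 CPM in WT (4.22 ± 1.11, edgeR adjusted p = 0.0049). Both genes had tight Upd libraries that lay far above WT.

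Klp61F, the kinesin that pushes spindle poles apart, rose by 3.74 ± 0.99 (edgeR adjusted p = 0.00506). The chromosomal passenger genes aurB and Incenp rose by 3.31 ± 1.17 and 2.81 ± 1.03, and sti, the citron kinase of cytokinesis, by 2.25 ± 0.78 (edgeR adjusted p = 0.0311, 0.0366 and 0.0284). Of the condensin subunits, glu rose by 2.07 ± 0.68 (edgeR adjusted p = 0.0208), while barr, at 76.3, 84.9 and 86.7 CPM in Upd and 50.3, 56.5 and 42.3 CPM in WT, did not pass (0.73 ± 0.89, edgeR adjusted p = 0.559). The minus-end kinesin gene ncd had 41.5, 37.9 and 30.2 CPM in Upd and 2.05, 6.76 and 8.07 CPM in WT (2.68 ± 1.12, edgeR adjusted p = 0.0668).

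**Figure D3:**
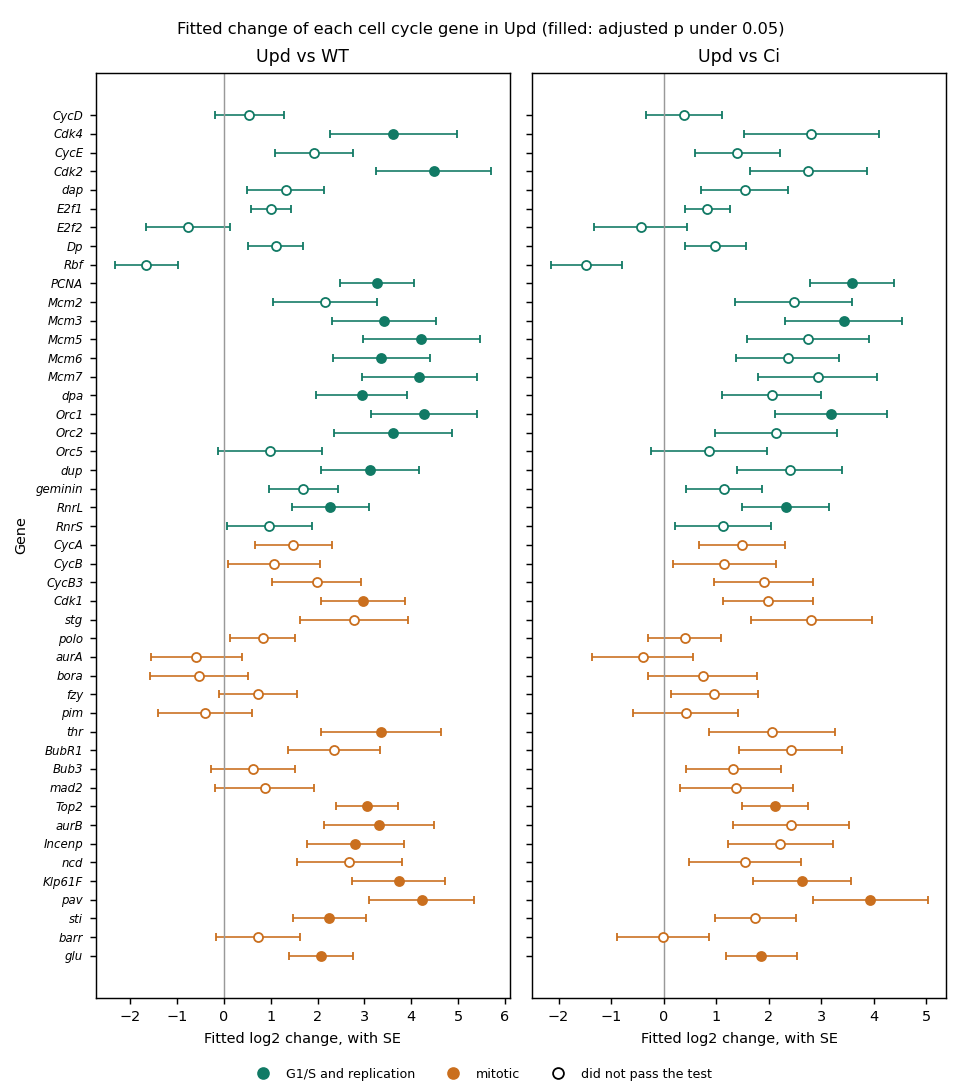
Fitted log2 change (horizontal axis, with SE bars) of each of the 46 genes in Upd against WT (left) and in Upd against Ci (right), green for G1/S and replication genes and orange for mitotic genes; filled points passed the test. In the comparison with WT 21 points are filled, mostly replication and chromosome genes, and in the comparison with Ci 8 are filled.

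Markers of other cells moved in the same comparison. The 16 early germline markers summed to 2549 to 2975 CPM in Upd and 1007 to 1146 CPM in WT, and 13 of them rose and 1 fell. vas, a defining gene of early germ cells, averaged 383 ± 29.6 CPM in Upd, against 8.57 ± 8.62 CPM in WT. The spermatocyte and spermatid markers summed to 194 to 329 CPM in Upd, against 6287 to 11230 CPM in WT, with 15 of 22 tested lower and ProtA without a count in Upd. Markers of cyst stem cells were higher for 8 of 8, those of differentiating cyst cells lower for 3 of 4, those of muscle lower for 3 of 4, and of 5 hub markers 2 were higher and 3 lower. Of the 2 higher hub markers, 1 was upd1, the gene behind the Upd transgene itself. Reads in no gene made up 15.1% to 17.0% of counts in Upd and 9.55% to 10.8% in WT. Which cells the cell cycle transcripts came from was not tested, nor was the part of the reads in no gene.

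Of the 17 rises among genes that did not need Upd to pass the filter, 5 stayed past the threshold whichever library of Upd or WT was left out, namely PCNA, Orc1, Top2, Klp61F and pav. The number of all members that rose was 12 without Upd 1, 13 without Upd 2, 12 without Upd 3, 12 without WT 1, 8 without WT 2 and 11 without WT 3. In none of these fits did a member fall.

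In Ci, made to raise Hedgehog signalling, no member passed the test against WT. Of the 46 genes, 0 rose and 0 fell against WT in the edgeR test, and 0 reached an unadjusted p under 0.05. DESeq2 and limma-voom called 0 as well, with 0 and 1 members at an unadjusted p under 0.05. Over all genes tested 0.00994% were called higher, which is 1 gene, and 0% lower. That gene was ci, the gene behind the Ci transgenes (3.57 ± 0.54, edgeR adjusted p = 0.00874). The median log2 change was 0.19 over the members and 0.01 over all genes.

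PCNA had 14.7, 29.7 and 23.04 CPM in Ci and 32.9, 24.7 and 27.5 CPM in WT, with overlapping groups (-0.33 ± 0.73, edgeR adjusted p = 1). CycE had 17.4, 26.2 and 31.6 CPM in Ci and 16.4, 15.9 and 19.9 CPM in WT (0.52 ± 0.81). Top2 had 114, 139 and 107 CPM in Ci, all above the 101, 30.2 and 58.9 CPM in WT, by 0.93 ± 0.61 (edgeR adjusted p = 1). The largest fitted change of a G1/S regulator was that of Cdk2, 1.72 ± 1.14, on 1.78, 2.81 and 10.7 CPM in Ci and 0, 1.59 and 2.85 CPM in WT.

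Fitted changes of stg, CycB, polo and bora were -0.02 ± 1.10, -0.09 ± 0.97, 0.43 ± 0.69 and -1.27 ± 1.05 in Ci against WT (edgeR adjusted p = 1 for each), and that of dap was -0.22 ± 0.81. thr and Mcm5, the lowest p of their roles, had 1.30 ± 1.21 and 1.46 ± 1.15. The Ci libraries differed among themselves: Ci 2 had the highest value of the 3 for 18 of the 23 mitotic genes, and Ci 1 had the lowest for 15. This ranking was not made over all genes tested. Ci 2 had counts in 13229 genes, against 11474 in Ci 1 and 11762 in Ci 3. For polo these libraries read 189 CPM in Ci 2 and 67.2 CPM in Ci 1, a spread wider than the distance of their mean from WT. Cyst stem cell markers had positive fitted changes for 8 of 8 in Ci against WT, with 0 called, and the spermatocyte and spermatid sum of 5437 to 9700 CPM in Ci overlapped that of WT.

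Set directly against Ci, Upd had 8 members higher and 0 lower, where 5.78% of all genes tested were called higher and 23.5% lower. At an unadjusted p under 0.05 there was 1 member lower, Rbf, and DESeq2 and limma-voom called 0 lower. The 8 were PCNA, Mcm3, Orc1 and RnrL of replication and Top2, Klp61F, pav and glu of chromosomes and spindle. PCNA differed by 3.59 ± 0.80 and pav by 3.94 ± 1.09 in log2 units (edgeR adjusted p = 0.00134 and 0.0076). The other 6 differed by 1.86 to 3.43, and each lost its call without at least 1 library. The median difference was 2.14 over the G1/S and replication genes, 1.75 over the mitotic genes and 0.01 over all genes.

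For genes named in every comparison, the differences of Upd from Ci were 1.41 ± 0.82 for CycE, 1.54 ± 0.83 for dap, 2.81 ± 1.15 for stg, 1.16 ± 0.98 for CycB, 0.40 ± 0.69 for polo and 0.74 ± 1.04 for bora, and none passed (edgeR adjusted p between 0.0712 and 0.702). The count depended on which libraries were fitted: with Upd and Ci alone 32 members were higher and 1, Rbf, was lower. In that fit 1867 of all 10056 genes were called higher and 3354 lower. DESeq2 called 21 members and 1046 genes higher, and limma-voom 27 members and 1319 genes. The count of members higher was 2 without Ci 3, 3 without Ci 2, 5 without Ci 1, 4 without Upd 1, 3 without Upd 2 and 4 without Upd 3. Early germline markers moved here too, 13 of 16 being higher in Upd than in Ci, and their part in these differences was not tested.

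In Chinmo against WT, 0 members rose and 3 fell, all mitotic. Over all genes tested 1.75% were called higher and 1.05% lower. At an unadjusted p under 0.05 there were 2 members higher and 11 lower, and DESeq2 and limma-voom called 0 higher. In either direction these are 13 of 46 members, beside 2416 of all 10056 genes tested. The median log2 change was -0.65 over the G1/S and replication genes, -1.77 over the mitotic genes and -0.32 over all genes.

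bora (3L, 18622692 to 18624751, plus strand) had 0 counts in all 3 Chinmo libraries, against 8.21, 43.4 and 57.9 CPM in WT. With 3 counts over the group as the limit, it was at least 41.6-fold lower in Chinmo (edgeR adjusted p = 0.0316). Its target aurA had 0, 3.95 and 0 CPM in Chinmo, against 25.7, 47.4 and 38.9 CPM in WT (-4.51 ± 1.21, edgeR adjusted p = 0.0486). sti (3L, 12507998 to 12514815, minus strand) had 1 count over the Chinmo libraries and 139 over the WT libraries, which is 70.3-fold lower with a 95% counting interval of 12.4 to 2795 (edgeR adjusted p = 0.0232). Intervals and limits of this kind cover counting error only.

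These 3 calls rested on few libraries. Without any one of the WT libraries 0 members passed, and without Chinmo 3 only sti did. Without Chinmo 2, 7 members fell, and 407 of all 10056 genes were called lower. With Chinmo and WT alone 0 passed, and 6 members had an unadjusted p under 0.05. DESeq2 called 12 members lower and limma-voom 6. Of all 10056 genes these methods called 1210 and 645 lower.

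Members that did not pass ranged widely. polo had 35.02, 24.4 and 0 CPM in Chinmo, all below the 85.2, 110.2 and 115.4 CPM in WT (-2.33 ± 0.74, edgeR adjusted p = 0.0746). pim had 0, 12.5 and 0 CPM in Chinmo, against 21.6, 46.6 and 66.9 CPM in WT (-3.26 ± 1.13, edgeR adjusted p = 0.0952). Neither gene's groups overlapped. PCNA (5.003, 17.8 and 0 CPM in Chinmo), CycE (6.67, 9.22 and 0 CPM) and dap (4.17, 6.59 and 0 CPM) also lay below every WT library, with changes of -1.77 ± 0.79, -1.60 ± 0.87 and -2.22 ± 0.90 (edgeR adjusted p = 0.175, 0.262 and 0.141).

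CycB showed the weight of Chinmo 3: it had 6.67, 5.27 and 86.4 CPM in Chinmo and 23.1, 46.9 and 23.3 CPM in WT, a change of 0.026 ± 0.996 that became -2.65 without Chinmo 3 (edgeR adjusted p = 0.128). stg, with a fitted change of -1.68 ± 1.20, did not pass (edgeR adjusted p = 0.408). The G1/S regulators E2f1, at 110.1, 197 and 249 CPM in Chinmo and 184, 105 and 130 CPM in WT, and CycD, at 17.5, 41.5 and 11.6 CPM in Chinmo and 22.1, 10.7 and 32.8 CPM in WT, overlapped between the groups. The spermatocyte and spermatid sum was 3445 to 4203 CPM in Chinmo, below the 6287 to 11230 CPM in WT, with 1 of 22 tested lower. All 22 had negative fitted changes, with a median log2 change of -1.46. Early germline markers summed to 1380 to 2278 CPM in Chinmo and 1007 to 1146 CPM in WT, with 0 higher and 1 lower of 16. Of these 16, 12 had negative fitted changes, with a median log2 change of -2.61, so the higher sum does not stand for most of the list. bam, zpg and tut of the early list and comr and tomb of the late list had no count in Chinmo. Their part in the mitotic differences was not tested.

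The libraries labelled chinmo RNAi had 0 members higher and 8 lower than WT, 1 of replication and 7 of mitosis. Over all genes tested 1.38% were called higher and 5.38% lower. No member had an unadjusted p under 0.05 in the higher direction (0 by edgeR, DESeq2 and limma-voom alike). The median log2 change was -0.55 over the G1/S and replication genes, -1.65 over the mitotic genes and -0.06 over all genes.

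Mitotic entry held 4 of the 8. CycB3 had 0, 0.642 and 1.55 CPM under the label chinmo RNAi, against 19.0, 25.1 and 19.5 CPM in WT (-4.69 ± 1.19, edgeR adjusted p = 0.0239). polo had 9.62, 28.9 and 11.4 CPM under that label, against 85.2, 110.2 and 115.4 CPM in WT (-2.64 ± 0.75, edgeR adjusted p = 0.0373). For both genes every library with the label lay below every WT library.

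aurA had 0, 0 and 3.10 CPM under the label chinmo RNAi, against 25.7, 47.4 and 38.9 CPM in WT, and bora had 4.49, 0 and 1.03 CPM, against 8.21, 43.4 and 57.9 CPM in WT. Their log2 changes were -5.004 ± 1.212 and -4.28 ± 1.24 (edgeR adjusted p = 0.0196 and 0.0434). CycA (6.41, 0.642 and 18.6 CPM with the label and 27.7, 54.5 and 72.2 CPM in WT) and CycB (3.21, 5.78 and 0 CPM with the label and 23.1, 46.9 and 23.3 CPM in WT) did not overlap WT but did not pass, at -2.56 ± 0.87 and -3.39 ± 1.12 (edgeR adjusted p = 0.0725 and 0.0673).

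At anaphase, pim (2L, 10362989 to 10364092, plus strand) had 3 counts over the libraries labelled chinmo RNAi and 300 over the WT libraries, 77.0-fold lower with a 95% counting interval of 26.1 to 375 (edgeR adjusted p = 0.0147). fzy had 3.21, 5.14 and 3.61 CPM with the label, against 17.96, 36.2 and 47.9 CPM in WT (-3.08 ± 0.93, edgeR adjusted p = 0.0477). sti had 1 count with the label and 139 in WT, 107-fold lower with an interval of 18.9 to 4255 (edgeR adjusted p = 0.00644). The 1 replication gene was Orc5, a small origin recognition subunit with 0 counts under the label and 41 in WT, at least 10.5-fold lower (edgeR adjusted p = 0.0333).

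Other members did not pass, CycE and Top2 among them. CycE had 31.4, 7.71 and 11.4 CPM with the label and 16.4, 15.9 and 19.9 CPM in WT (-0.05 ± 0.82, edgeR adjusted p = 0.978). Top2 had 146, 35.3 and 98.02 CPM with the label and 101, 30.2 and 58.9 CPM in WT (0.56 ± 0.61). PCNA had 7.05, 1.28 and 12.9 CPM with the label, below all WT libraries (-1.97 ± 0.78, edgeR adjusted p = 0.128). Changes of dap, stg and Cdk2 were -0.33 ± 0.82, -1.35 ± 1.16 and -2.64 ± 1.52, none past the threshold.

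Again the calls leaned on single libraries. One member, sti, passed in each fit with a library left out. The number that fell was 1 without the first or the second library labelled chinmo RNAi, 5 without the third, 8 without WT 1, 2 without WT 2 and 2 without WT 3. The 3 genes that fell in Chinmo, aurA, bora and sti, are among the 8, but both comparisons use the same WT libraries. Spermatocyte and spermatid markers summed to 3612 to 4585 CPM with the label against 6287 to 11230 CPM in WT, and 4 of 22 were lower. All 22 had negative fitted changes, with a median log2 change of -2.18. Early germline markers summed to 3280 to 4465 CPM with the label and 1007 to 1146 CPM in WT, with 2 higher and 3 lower of 16. Of the 16 early germline markers, 10 had negative fitted changes, with a median log2 change of -0.89. Their higher sum therefore does not stand for most of the list. nos, zpg and tut of the early list and aly, comr, nht and tomb of the late list had no count under the label. The part of these cells in the mitotic differences was not tested.

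**Figure D4:**
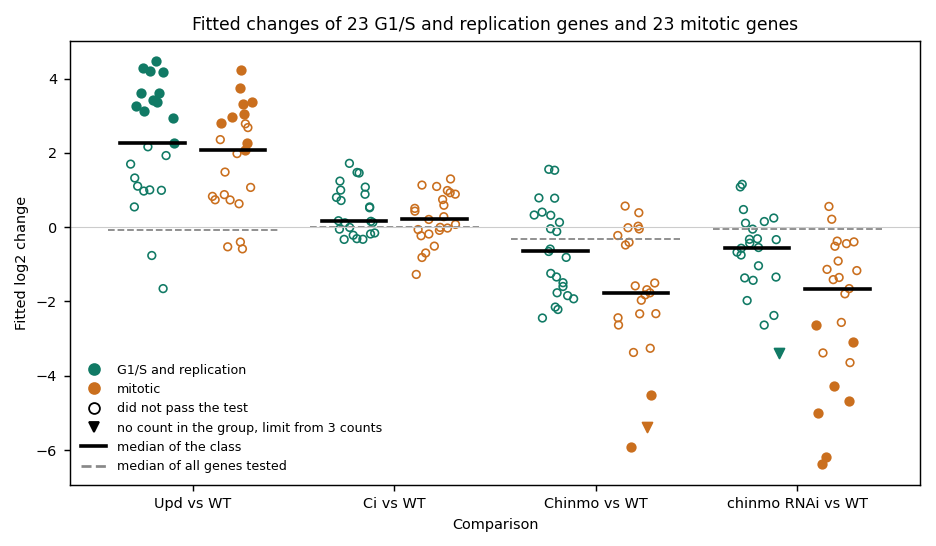
Fitted log2 change of the 23 G1/S and replication genes (green) and the 23 mitotic genes (orange) in each comparison with WT; filled points passed the test, triangles are genes without a count in the group drawn at the limit from 3 counts, black lines are class medians and dashed lines the median of all genes tested. The class medians are 2.27 and 2.07 in Upd and 0.17 and 0.21 in Ci, and the mitotic median is lower, at -1.77 against -0.65 in Chinmo and -1.65 against -0.55 under the label chinmo RNAi.

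The G1/S and replication class and the mitotic class were then set side by side. In Upd against WT both were displaced upwards, with 12 of 23 and 9 of 23 genes higher, and with medians of 2.27 and 2.07. The counts, and the medians here and by role, include Cdk4, Cdk2, Orc2 and aurB, which entered the test only through Upd. Without them, 0 of 7 G1/S regulators, 9 of 13 replication genes and 6 of 8 genes of chromosomes, spindle and cytokinesis rose. By role, median changes were 3.19 for replication and 2.81 for chromosomes, spindle and cytokinesis, and 1.10, 1.28 and 0.81 for G1/S regulators, mitotic entry and anaphase. In the libraries labelled chinmo RNAi, 1 of 23 G1/S and replication genes and 7 of 23 mitotic genes were lower than in WT, and in Chinmo 0 and 3. Without Chinmo 2 the G1/S and replication median in Chinmo was -1.75, beside a mitotic median of -2.57. Differences between classes or between roles were not tested.

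Levels were also summed over each class, without a fit. The 23 mitotic genes summed to 2315 to 2514 CPM in Upd, 614 to 1068 CPM in Ci, 138 to 391.9 CPM in Chinmo, 207 to 314 CPM under the label chinmo RNAi, and 614 to 816 CPM in WT. Every library of Chinmo and of the label chinmo RNAi therefore lay below every WT library. The 23 G1/S and replication genes summed to 1690 to 1785 CPM in Upd, 512 to 762 CPM in Ci, 450 to 1535 CPM in Chinmo, 400 to 636 CPM under the label chinmo RNAi, and 442 to 706 CPM in WT. Outside Upd these ranges overlapped, and the 1535 CPM of Chinmo 3 held 841 CPM of Rbf, 249 CPM of E2f1, 221 CPM of geminin and 213 CPM of Dp.

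The sums were then split by role. Mitotic entry genes summed to 725 to 764 CPM in Upd, 186 to 476 CPM in Ci, 91.4 to 101 CPM in Chinmo, 31.4 to 59.3 CPM in libraries with the label chinmo RNAi, and 214 to 373 CPM in WT. Replication genes summed to 980 to 1124 CPM in Upd, 159 to 242 CPM in Ci, 162 to 221 CPM in Chinmo, 58.5 to 129.5 CPM under the label chinmo RNAi, and 134 to 185 CPM in WT. Every library of Chinmo and of the label chinmo RNAi was thus below WT in mitotic entry genes. Replication genes overlapped WT in Chinmo, where the sum of Chinmo 3 was geminin alone, and lay below WT under the label chinmo RNAi. Anaphase and checkpoint genes summed to 290 to 413 CPM in Upd, 95.3 to 176 CPM in Ci, 23.3 to 116 CPM in Chinmo, 34.1 to 54.2 CPM under the label chinmo RNAi, and 137 to 210 CPM in WT, so Chinmo and that label lay below WT here too. Genes of chromosomes, spindle and cytokinesis summed to 1296 to 1337 CPM in Upd, 317 to 416 CPM in Ci, 23.3 to 220 CPM in Chinmo, 133 to 226 CPM under the label chinmo RNAi, and 176 to 263 CPM in WT, and here both overlapped WT.

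**Figure D5:**
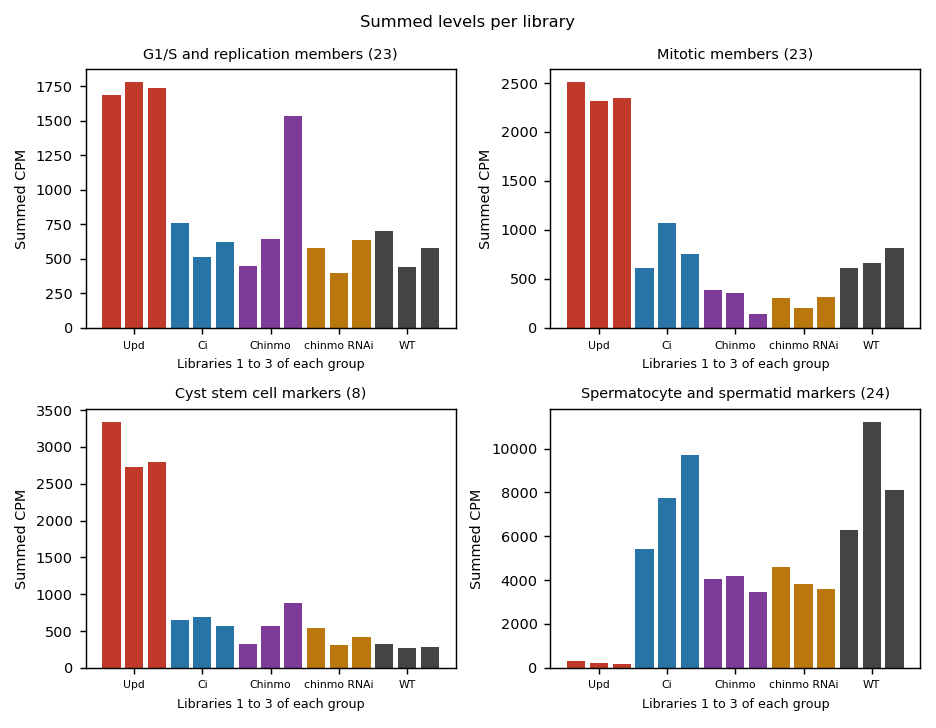
Summed CPM per library (bars from 0, 3 per group in the order 1 to 3) of the G1/S and replication genes, the mitotic genes, 8 cyst stem cell markers and 24 spermatocyte and spermatid markers. Upd is highest in the first 3 panels and lowest in the last, at 194 to 329 CPM against 6287 to 11230 CPM in WT, and the mitotic sums of Chinmo and of the libraries labelled chinmo RNAi are below those of WT.

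Upd and Chinmo were also compared directly. In Upd 34 members were higher and 1 was lower than in Chinmo, where 14.4% of all genes tested were called higher and 24.2% lower. The median difference was 3.53 over the G1/S and replication genes (15 higher), 3.32 over the mitotic genes (19 higher) and -0.04 over all genes. All 9 genes of chromosomes, spindle and cytokinesis were higher in Upd. Among the 34 were Cdk4, Cdk2, Orc2 and aurB, which passed the filter only through the Upd libraries.

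PCNA differed by 5.02 ± 0.88 between Upd and Chinmo, CycE by 3.52 ± 0.91 and dap by 3.54 ± 0.93 (edgeR adjusted p = 0.000133, 0.00464 and 0.00512). stg and polo differed by 4.47 ± 1.29 and 3.16 ± 0.76 (edgeR adjusted p = 0.00953 and 0.0027), and CycB by 1.045 ± 0.997 (edgeR adjusted p = 0.422). bora, without a count in Chinmo, was at least 27.3-fold higher in Upd (edgeR adjusted p = 0.00214). sti had 848 counts over the Upd libraries and 1 over the Chinmo libraries, 329-fold higher with a 95% counting interval of 58.9 to 13000 (edgeR adjusted p = 1.7e-05). The lower gene was Rbf, with 39.1, 38.9 and 35.9 CPM in Upd and 86.7, 116 and 841 CPM in Chinmo (-3.19 ± 0.71, edgeR adjusted p = 0.00146), and its fall was -1.25 without Chinmo 3 (edgeR adjusted p = 0.0332). With Upd and Chinmo alone in the fit 22 members were higher and 1 lower, beside 828 of all 10056 genes higher and 1043 lower. Marker lists moved in the same comparison: 14 of 16 early germline markers and 7 of 8 cyst stem cell markers were higher in Upd, and 13 of 22 spermatocyte and spermatid markers were lower. Their part in these differences was not tested.

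Other genes of the same pathways, from lists of replication and mitosis genes that are not members, went the same way in Upd. These lists were chosen with earlier results of these data known, so they are not an independent check. Of 27 tested replication genes 9 (33.3%, beside 9.22% of all genes tested) were higher than in WT and 0 lower, with a median log2 change of 2.11. They included DNApol-alpha180, the catalytic subunit of polymerase alpha (3.30 ± 0.81), Chrac-14 (5.05 ± 1.33), DNApol-epsilon255 (3.51 ± 1.01) and the chromatin assembly gene Caf1-180 (3.64 ± 1.07), with edgeR adjusted p = 0.0028, 0.0047, 0.00932 and 0.0106. Of 40 tested mitosis genes 7 (17.5%) were higher and 0 lower, with a median of 1.54. These included the condensin and cohesin genes SMC2 (4.31 ± 0.95), SMC1 (3.50 ± 0.97) and SMC3 (3.85 ± 1.31) and the checkpoint gene rod (2.87 ± 0.97), with edgeR adjusted p = 0.0011, 0.00712, 0.0254 and 0.0252.

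Against Ci, Upd had 6 of the 27 replication genes (22.2%) and 4 of the 40 mitosis genes (10%) higher and 0 lower, beside 5.78% of all genes tested. In Ci against WT 0 genes of either list passed in edgeR, and 0 had an unadjusted p under 0.05. In Chinmo against WT 0 passed as well, with 4 of the 27 replication and 9 of the 40 mitosis genes at an unadjusted p under 0.05. Of all 10056 genes tested, 2416 had such a p in Chinmo against WT and 2320 under the label chinmo RNAi. In the libraries labelled chinmo RNAi 0 of the 27 replication genes passed, with 5 at an unadjusted p under 0.05, and 2 of the 40 mitosis genes did, both lower than in WT. That share of 5% is near the 5.38% of all genes called lower in this comparison. The 2 were the centrosome genes cnn, at -2.54 ± 0.59, and SAK, the fly Plk4, at -2.43 ± 0.70 (edgeR adjusted p = 0.0161 and 0.0396).

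Per length, the most abundant member differed between groups. In CPM per kilobase of exon it was PCNA in Upd (254), ahead of Cdk1 (123) and Top2 (99.9), and polo in Ci (46.9), where geminin (41.6) was within the spread of the libraries. In Chinmo it was Rbf (96.1), a mean carried by Chinmo 3, in the libraries labelled chinmo RNAi E2f1 (30.1), and in WT pim (46.03), ahead of polo (34.8) and Rbf (33.1). The SD of pim in WT was 22.7 CPM on a mean of 45.0 CPM, so its lead over polo lies within the spread of the libraries.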

How the data were processed

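Per the labels' protocols, GFP-positive cells of dissociated testes were sorted into TRIzol and sequenced paired-end. Per the submitters' processing notes, bcl2fastq, STAR, Picard, HTSeq and DESeq2 were used with builds dm6 and BDGP6; the sources used here give no version, strand setting or annotation release. The authors deposited whole-number counts per gene and library, and a deposited signal table holding each count over its library's size factor, which differed from that quotient by at most 0.0175 and was used only for this check. Summary lines for reads in no gene (7.01% to 17.0% of all lines' counts) and ambiguous reads (13.5% to 26.8%) stayed out of library sizes. Gene counts per library ran from 1143049 to 2943120, and intervals (exact, 95%) and limits (3 counts) cover counting error only.

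Genes were kept by filterByExpr (10056 of 17408), scaled by TMM and fitted in all 15 libraries with 1 mean per group by edgeR 4.0.16 (glmQLFit, robust, two-sided F test, R 4.3.3). Common dispersion was 0.427, a biological coefficient of variation of 65.3%. Within each of 6 comparisons, Benjamini-Hochberg adjustment ran over every gene tested, with a threshold of 0.05. The code was tested on simulated data. Changes are fitted log2 values with SE. Positions and exon overlaps came from the BDGP6.54 annotation. Named with fold change were members past the threshold, the lowest p of each role in comparisons with WT, and PCNA, CycE, dap, stg, CycB, polo and bora throughout; other genes named with values (such as CycA, geminin, Rbf, ncd or the lists' genes) show the levels of their role or follow the lists' rule, up to 4 with the lowest p in Upd against WT. CycB3, cnn and SAK are named because they passed. The members and lists were chosen with earlier results of these data known. Alternatives were RLE and upper-quartile scaling, 2 other filters, DESeq2 1.42.0, limma-voom (limma 3.58.1), the replicate number as a block, fits of 2 groups, removal of 119 ribosomal RNA genes and leaving out each library. No batch is given in the labels.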

Additional observations from a re-analysis of the deposited data

How the results depend on the processing

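Ci against WT had 0 members called in every setting run. In Upd against WT every member called was higher, except Rbf, which fell with no filter and with 2 groups only. Counts of members called moved by over 1.5 times as follows. With 2 groups only, Upd against WT gave 35, Upd against Ci 33, Upd against Chinmo 23 and Chinmo against WT 0. Upper-quartile scaling gave 17 in Upd against Ci. Chinmo against WT gave 6 with no filter, 12 with DESeq2 and 6 with limma-voom, and Upd against Ci gave 21 with DESeq2 and 27 with limma-voom. Deviations of samples with the same replicate number had correlations of -0.055 to -0.005 in Upd against WT. In Ci against WT these ran from -0.020 to 0.295, so whether the number pairs samples was not settled. With the replicate block, Chinmo against WT gave 0 members and 11 genes, and the label chinmo RNAi 4 members and 358 genes. Upd against WT then gave 16 members. With 1 library left out, members called ranged from 8 to 13 in Upd against WT, 0 to 7 in Chinmo against WT, 1 to 8 for the label chinmo RNAi, 2 to 5 in Upd against Ci and 28 to 37 in Upd against Chinmo.

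Genes called over the whole table also moved. Chinmo against WT had 282 in the fit reported, 662 with upper-quartile scaling, 814 with no filter, 2 with 2 groups only, 1617 with DESeq2, 842 with limma-voom and 0 to 885 with 1 library left out (59 without Chinmo 3). The label chinmo RNAi had 680, and 1062, 1549, 1679 and 1586 with no filter, 2 groups only, DESeq2 and limma-voom, and 31 to 600 with 1 library left out. Ci against WT had 1, with 2 with no filter, 3 with 2 groups only, 3 with limma-voom and 0 to 1 with 1 library left out. With 2 groups only, Upd against WT had 5723, Upd against Ci 5221 and Upd against Chinmo 1871.

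None of the values whose sign turned was past the threshold. Ci against WT gave 0.056 (RLE) and 0.055 (DESeq2) for CycB and 0.0046 (upper quartile) for stg; with 1 library left out, CycB ranged from -0.97 to 0.34, stg from -1.09 to 0.85 and dap from -0.55 to 0.30. Chinmo against WT gave CycB -0.029 (RLE), -0.00084 (DESeq2) and -1.10 (limma-voom), and -2.65 to 0.55 with 1 library left out. For the label chinmo RNAi, CycE then ranged from -0.86 to 0.29 and dap from -0.68 to 0.069. The cause of these moves was not tested. Scaling moved the median of all genes: by upper quartile it was 0.16 in Upd against WT and 0.23 in Upd against Ci, and by RLE -0.61 in Chinmo against WT, -0.34 for the label chinmo RNAi and 0.24 in Upd against Chinmo. Over all settings the median of all genes in Chinmo against WT ran from -0.73 to -0.18, while the mitotic median ran from -2.58 to -1.57 and that of the G1/S and replication genes from -1.75 (without Chinmo 2) to -0.27 (without WT 1). Depth limits the genes at a few counts in WT, among them Cdk2, Cdk4 and Orc2.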

Other observations

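The row rap, given by the BDGP6.54 annotation as a synonym of the symbol fzr that was not found, had 36.4, 21.0 and 21.2 CPM in Upd, 77.5, 47.0 and 40.5 CPM in Ci, 59.2, 61.2 and 678 CPM in Chinmo, 108, 41.8 and 62.9 CPM under the label chinmo RNAi, and 63.7, 82.0 and 44.6 CPM in WT. The Upd libraries lay below every WT library, with a fitted log2 change of -1.28 ± 0.73 (edgeR adjusted p = 0.183), and the high Chinmo mean rested on Chinmo 3.

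Of 6 tested genes that germ cells use in male meiosis, bol, a translational regulator of meiotic entry, fell in Upd against WT by 3.17 ± 0.74 in log2 units (edgeR adjusted p = 0.00208), while ord, which holds sister chromatids together in meiosis, rose by 2.33 ± 0.81 (edgeR adjusted p = 0.0284). The 6 genes summed to 217 to 287 CPM in Upd, 717 to 1133 CPM in Ci, 6.65 to 300 CPM in Chinmo, 57.2 to 240 CPM under the label chinmo RNAi and 625 to 971 CPM in WT.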
